A study of Zea mays with 18 samples.

Results

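Sucrose that reaches a maize kernel is turned into starch through a short series of reactions, and 6 genes that act early in it were followed here in the endosperm: sh1 (Zm00001d045042), sus1 (Zm00001d047253), mn1 (Zm00001d003776), sh2 (Zm00001d044129), bt2 (Zm00001d050032) and bt1 (Zm00001d015746). They were chosen by name for these roles, not by their values, and are 6 of the 46430 features counted. mn1 encodes a cell wall invertase, which splits sucrose outside the cell. sh1 and sus1 encode sucrose synthases, which split it inside the cell into fructose and UDP-glucose. sh2 and bt2 encode the large and the small subunit of the endosperm ADP-glucose pyrophosphorylase, the enzyme that makes ADP-glucose, and bt1 encodes the carrier that takes ADP-glucose into the amyloplast. Kernels that lack the function of sh1, sh2, bt1, bt2 or mn1 are known as shrunken, brittle or miniature.

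The counts come from RNA of laser-captured aleurone, the outer cell layer of the endosperm, and starchy endosperm, the storage tissue inside it, of kernels of the inbred W22 at 19 days after pollination. Kernels carried R1-g, which the design text marks as wild type, R1-sc or r1-m3, and these genotypes are named for alleles of R1, a regulator of anthocyanin pigment. Plants of all groups were field-grown and selfed, and there were 3 libraries, given as biological replicates, of each genotype and compartment. The labels do not say how many kernels or plants went into a library, so the p-values measure the spread between these libraries. In such dissected tissue, fewer cells of a type and less RNA per cell cannot be told apart.

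The libraries held 12.5 M to 20.4 M counts on features (M stands for mega). In r1-m3 aleurone, replicate 3 cannot be taken as independent of replicates 1 and 2. Of 490 features with at least 200 counts in one of those and 0 in the other, all 490 were present in replicate 3, and 0 features were present in it alone, where the R1-g and R1-sc aleurone libraries each had 174 to 274. Its values are shown, but it is left out of group means and of the fit, so n = 2 in r1-m3 aleurone, and results that change with it are given both ways. Levels are CPM, counts scaled to a common library total with TMM factors, as mean ± SD. Features could not be matched to marker genes of the aleurone, the starchy endosperm or other kernel tissues, because the reference pairs 0 of the 45 marker symbols with a feature, so the compartment labels were not checked against markers. The same holds for 40 other symbols of sucrose and starch metabolism, of which 0 could be paired.

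The first question was where in the endosperm each transcript lies. sh1, sh2, bt2 and bt1 were transcripts of the starchy endosperm, with means of 4152 to 17747 CPM there (n = 9) and 8.26 to 93.7 CPM in the aleurone (n = 8). By contrast sus1, the other sucrose synthase gene of the set, was an aleurone transcript at 911 ± 575 CPM against 1.79 ± 4.19 CPM in the starchy endosperm. mn1 was not detected. All 5 detected genes passed the filter on low counts, and averaged over genotypes all 5 differed between compartments (edgeR adjusted p below the threshold of 0.05), 1 higher and 4 lower in the aleurone. Of the 19111 features tested, 34.3% were called in that comparison, 20.9% higher and 13.4% lower in the aleurone. The median log2 fold change of the 5 genes was -7.58, where the median of all features was 0.57.

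**Figure D1:**
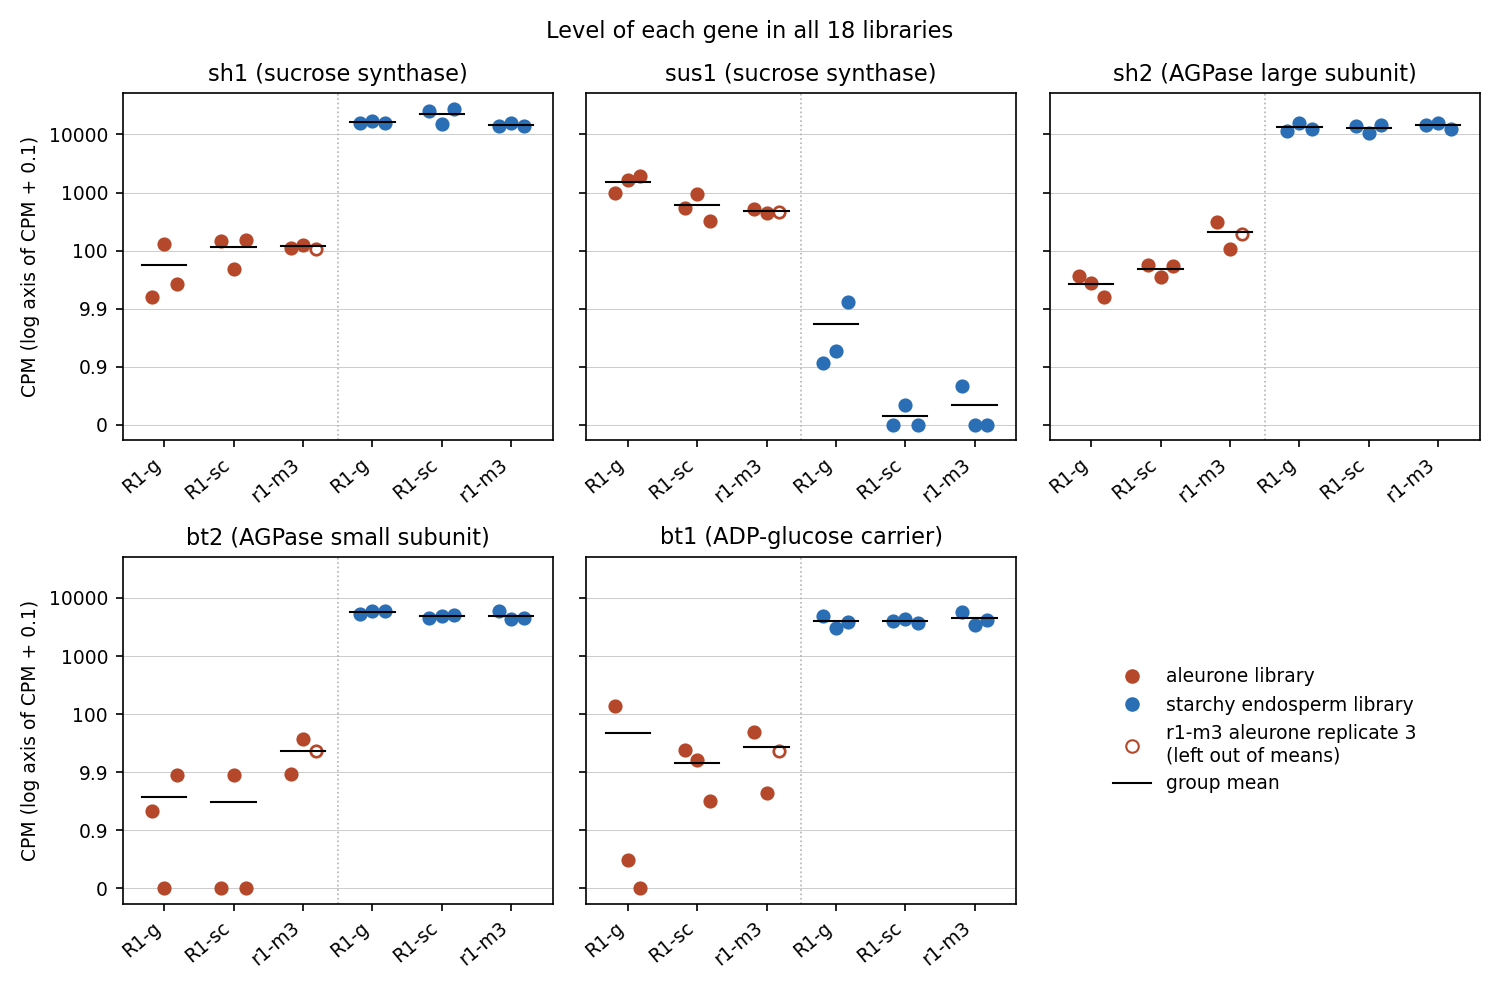
Level of the 5 detected genes in all 18 libraries, by genotype and compartment, as CPM on a log axis (0.1 added so that 0 can be drawn). Points are libraries, lines are group means, and the open point is r1-m3 aleurone replicate 3. Every starchy endosperm library stands above every aleurone library for sh1, sh2, bt2 and bt1, and below every one for sus1; the aleurone values of bt2 and bt1 fall to 0 in some libraries.

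mn1, whose invertase is known from the basal transfer layer through which sugar enters the endosperm, had 0 counts in all 18 libraries. A count of 0 allows up to 3 counts, which is 0.147 to 0.240 CPM of the feature totals here and covers counting error only. No sample of the transfer layer is among those labelled, and mn1 was too low to be tested.

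sh1, the sucrose synthase known as the main form of the developing endosperm, took 0.989% to 2.03% of all feature counts in the starchy endosperm. In R1-g it stood at 15567, 17030 and 15863 CPM in starchy endosperm replicates 1 to 3 and at 16.0, 127 and 26.3 CPM in the aleurone. In R1-sc the starchy endosperm values were 24931, 15102 and 27215 CPM and the aleurone values 144, 47.3 and 153 CPM. The compartments lay far apart in both genotypes, and 1 library of each aleurone group stood off from the other 2. In r1-m3 the values were 14039, 15860 and 14115 CPM against 111, 126 and, in the library left out, 108 CPM. The starchy endosperm mean was 287 times the aleurone mean in R1-g, and for R1-sc and r1-m3 the factors were 196 and 124. The fitted log2 fold changes, aleurone minus starchy endosperm, were -8.16 (SE 0.749), -7.61 (SE 0.732) and -6.95 (SE 0.857), with edgeR adjusted p of 8.50e-07, 1.59e-06 and 5.00e-05. Without R1-g aleurone replicate 2, the one at 127 CPM, the R1-g value was -9.58.

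sus1 ran the other way. In R1-g aleurone it stood at 990, 1618 and 1894 CPM, and in the starchy endosperm of that genotype at 1.06, 1.74 and 12.9 CPM, from 12, 21 and 132 counts. In R1-sc aleurone it stood at 546, 942 and 321 CPM, and the starchy endosperm libraries held 0, 1 and 0 counts. In r1-m3 aleurone it stood at 527 and 451 CPM, with 462 CPM in the library left out, and the starchy endosperm held 4, 0 and 0 counts. Every aleurone library thus held at least 6658 sus1 counts, and 4 of the 9 starchy endosperm libraries held none. In R1-g the aleurone mean was 287 times that of the starchy endosperm. The log2 fold change was 8.17 (SE 1.17), with an edgeR adjusted p of 0.000123, and without starchy endosperm replicate 3, which held 132 of the 165 counts, the log2 value was 10.05. In the other genotypes the starchy endosperm held too few counts for a firm fold: the ratio of summed counts, scaled for depth, was 17111 in R1-sc (exact 95% interval 3071 to 675852, from 1 count in the starchy endosperm) and 4505 in r1-m3 (1759 to 16537, from 4), and these intervals cover counting error only. Both were called (edgeR adjusted p = 5.54e-06 and 1.66e-05).

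The 2 sucrose synthase genes of the set can be set against each other within a library, where the scaling has no part. Transcript lengths were not accounted for, so only the change of the ratio between libraries is read. sus1 made up 98.4%, 92.7% and 98.6% of the counts on both genes in R1-g aleurone replicates 1 to 3 (95% Wilson intervals 98.2% to 98.6%, 92.5% to 93.0% and 98.5% to 98.7%). The shares were 79.2%, 95.2% and 67.8% in R1-sc aleurone, and 82.6%, 78.1% and, in the library left out, 81.1% in r1-m3 aleurone. In the starchy endosperm the share was at most 0.081%, in R1-g replicate 3. The log2 ratio of sh1 to sus1 (0.5 added to each count) averaged -3.40 ± 1.94 over 8 aleurone libraries and 15.99 ± 3.12 over 9 of the starchy endosperm, with no overlap. The difference within genotypes was -19.24, with p = 0.00025 in a two-sided exact permutation of the compartments within genotypes over 4000 relabellings, the smallest it can give, and 0.00075 adjusted over the 3 ratios compared. The sum of both genes stood at 1005 ± 545 CPM in the aleurone (474 to 1920) and 17749 ± 4841 CPM in the starchy endosperm (14040 to 27215). The aleurone thus held the smaller sum of these 2 genes although it held nearly all of sus1. Any other sucrose synthase genes are not in this sum.

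**Figure D2:**
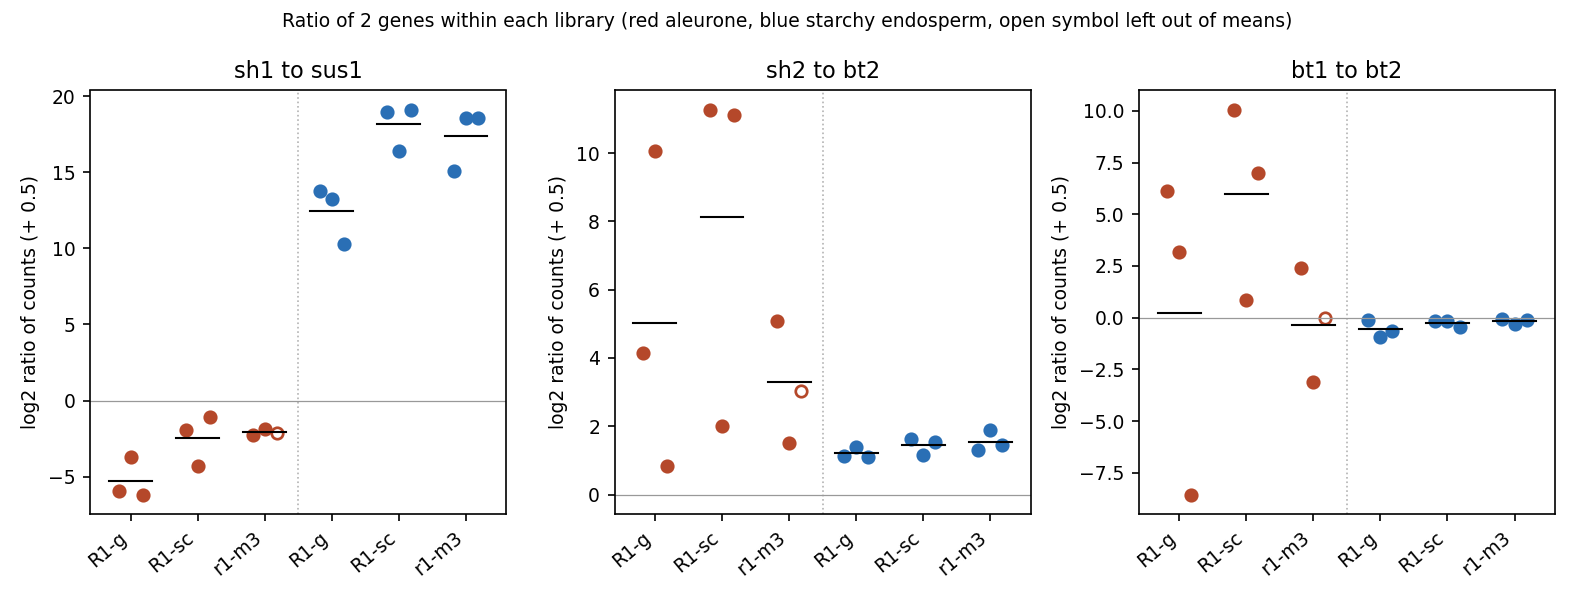
Log2 ratio of the counts of 2 genes within each library (0.5 added to each count), by genotype and compartment; lines are group means and the open point is r1-m3 aleurone replicate 3. The ratio of sh1 to sus1 lies between -6.17 and -1.07 in the aleurone and between 10.26 and 19.10 in the starchy endosperm, while the ratios of sh2 and bt1 to bt2 are tight in the starchy endosperm and scattered in the aleurone.

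The large subunit gene sh2 had the smallest errors of the set. In the starchy endosperm it stood at 11407, 15760 and 12617 CPM in R1-g, 13970, 10765 and 14732 CPM in R1-sc and 14748, 15862 and 12468 CPM in r1-m3. In the aleurone it stood at 36.3, 27.3 and 15.9 CPM in R1-g, at 56.1, 35.1 and 53.6 CPM in R1-sc, and at 309 and 106 CPM in r1-m3, with 190 CPM in the library left out. The starchy endosperm groups overlapped one another, while the r1-m3 aleurone libraries lay above all other aleurone libraries. The log2 fold changes between compartments were -8.97 (SE 0.479) for R1-g, -8.09 (SE 0.462) for R1-sc and -6.11 (SE 0.509) for r1-m3, with edgeR adjusted p of 1.55e-13, 1.87e-12 and 2.29e-09. As folds of the means these are 501, 272 and 69.3; without r1-m3 aleurone replicate 1 the log2 value in r1-m3 was -7.08.

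bt2, the small subunit gene, stood at 5260, 5973 and 5934 CPM in R1-g starchy endosperm, 4552, 4822 and 5038 CPM in R1-sc and 5987, 4286 and 4578 CPM in r1-m3. In the aleurone it had 44, 0 and 187 counts in R1-g, which is 2.0, 0 and 8.77 CPM, and 0, 156 and 0 counts in R1-sc, which is 0, 8.68 and 0 CPM. In r1-m3 aleurone it stood at 9.18 and 37.5 CPM, with 23.2 CPM in the library left out. The aleurone libraries therefore ranged from none to 802 counts, while the starchy endosperm libraries stayed within 4286 to 5987 CPM. The starchy endosperm mean was 1593-fold that of the aleurone in R1-g and 1660-fold in R1-sc, the latter resting on 156 counts of 1 library. In r1-m3 it was 212-fold. The log2 fold changes were -10.63 (SE 2.61, edgeR adjusted p = 0.0300), -10.70 (SE 2.61, 0.0259) and -7.73 (SE 2.80, 0.154), so bt2 was called in R1-g and R1-sc but not in r1-m3, where it was called with all 18 libraries (adjusted p = 0.0433), without R1-sc aleurone replicate 2 (0.0408) and from the r1-m3 libraries alone (0.000291). In R1-g the call was lost without any single library of that genotype (adjusted p 0.0524 to 0.0993) and with a replicate block (0.0606), and without aleurone replicate 3 the log2 value was -12.46. In r1-m3 it was -7.04 without aleurone replicate 1 and -9.06 without replicate 2, and bt2 was not called in either case. In R1-sc it was lost without starchy endosperm replicate 1 (0.0503) or 3 (0.0523). Without R1-sc aleurone replicate 2 that group held no bt2 count at all. Averaged over genotypes the log2 fold change was -9.69 (SE 1.70, edgeR adjusted p = 0.00129), and -12.55 without R1-sc aleurone replicate 2 and -10.30 without R1-g aleurone replicate 3.

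The carrier gene bt1 stood at 4899, 3086 and 3859 CPM in R1-g starchy endosperm, 4041, 4385 and 3661 CPM in R1-sc and 5730, 3471 and 4239 CPM in r1-m3. R1-g aleurone held 3057, 4 and 0 counts, which is 139, 0.207 and 0 CPM. R1-sc aleurone stood at 24.1, 15.8 and 3.04 CPM, and r1-m3 aleurone at 49.2 and 4.30 CPM with 22.8 CPM in the library left out. Each aleurone value lay below every starchy endosperm value, but the aleurone libraries of a group differed widely from each other. Per genotype the log2 fold changes were -6.41 (SE 2.30) for R1-g, -8.14 (SE 2.48) for R1-sc and -7.39 (SE 2.90) for r1-m3, and none was called (edgeR adjusted p = 0.119, 0.0605 and 0.178 in the order above). R1-sc was called with all 18 libraries (0.0382) and without R1-g aleurone replicate 1, 2 or 3 (0.000738, 0.0361 and 0.0209). r1-m3 was called without R1-g aleurone replicate 1 (0.00666). From the libraries of 1 genotype alone, R1-sc (0.000396) and r1-m3 (0.00299) were called, and without a filter on low counts all 3 genotypes were called (1.97e-37, 6.66e-52 and 6.60e-31 in the order above), in a fit that gave bt1 no spread of its own. DESeq2 also called bt1 in each genotype (adjusted p = 0.00187 for R1-g, 1.68e-05 for R1-sc and 0.00112 for r1-m3). Averaged over genotypes bt1 was called, with a log2 fold change of -7.31 (SE 1.59) and an edgeR adjusted p of 0.00478. Without R1-g aleurone replicate 1, which held 3057 of that group's 3061 counts, the R1-g value was -15.15 (adjusted p = 0.000270) and the average -10.22; without r1-m3 aleurone replicate 1 the average was -8.19 and the r1-m3 value -10.02, and without r1-m3 aleurone replicate 2 the r1-m3 value was -6.50.

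Of the 5 genes, 4 were called between compartments in R1-g, 4 were called in R1-sc, and r1-m3 had 3. The shares called among all features were 7.26%, 10.2% and 4.60%. These shares depend on the libraries fitted: r1-m3 had 880 of 19111 features called, and 1788 of 18028 with all 18 libraries. Without r1-m3 aleurone replicate 1 or 2 it had 503 or 464, and without its starchy endosperm replicate 1 or 2 it had 577 or 555. R1-g had 1387, and 856 or 839 without its starchy endosperm replicate 1 or 3. R1-sc had 1942, and 1106, 1161 or 1094 without its starchy endosperm replicate 1, 2 or 3. All 5 had an unadjusted p under 0.05 in each genotype, but the share of all features at that threshold was not counted. Of the calls, sus1 was the one higher in the aleurone each time, against 3.52%, 5.83% and 3.03% of all features, and the others were lower, against 3.74%, 4.33% and 1.58%.

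**Figure D3:**
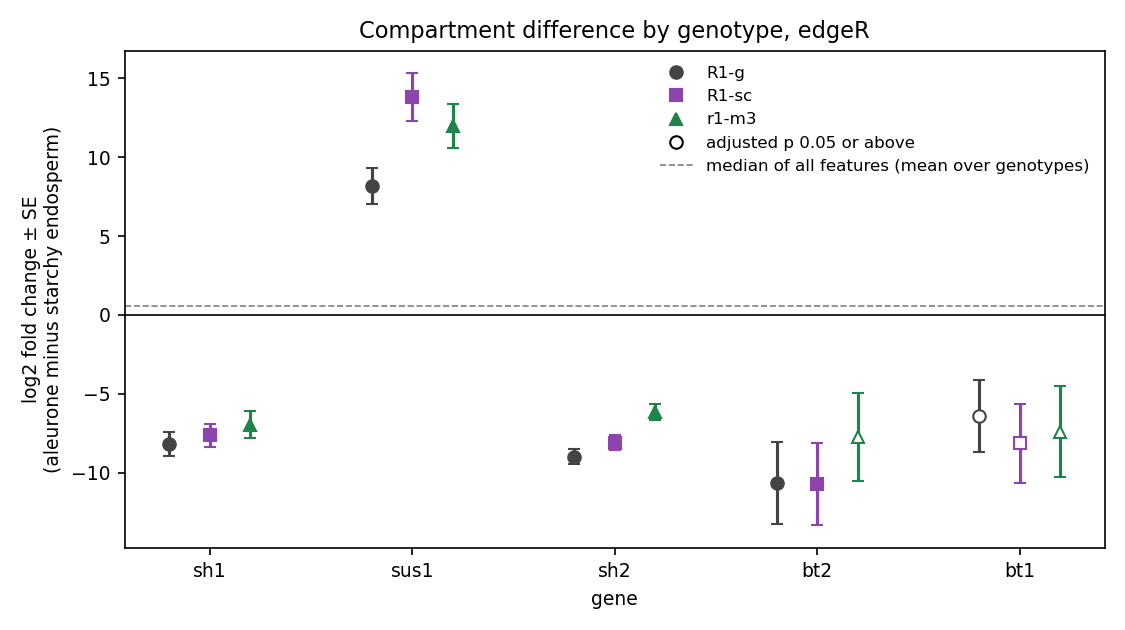
Log2 fold change between aleurone and starchy endosperm for each gene and genotype, with its SE from the edgeR fit of 17 libraries; open symbols did not pass the adjusted threshold, and the dashed line at 0.57 is the median of all features tested. sh1 and sh2 are low with small errors, bt2 and bt1 low with large ones, and sus1 is high; its values in R1-sc and r1-m3 rest on 1 and 4 starchy endosperm counts.

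The 4 starchy endosperm genes were placed among the abundant transcripts of that tissue, which include them. Of the 107 features with a mean of at least 1000 CPM there, a limit chosen after the data had been seen, the median log2 fold change was -1.60. Of these 107, 1 was lower than bt2, 3 lower than sh2, 5 lower than sh1 and 6 lower than bt1. These counts include genes of the set: bt2 is among those below sh2, and bt2 and sh2 are among those below sh1. Below bt1 lie bt2, sh2 and sh1. Among all 19111 features, sus1 was the 175th counted from the highest.

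The spread between libraries of a group differed by gene as well as by compartment. In the starchy endosperm the SD of log2 CPM, pooled over genotypes, was 0.16 for bt2, 0.22 for sh2, 0.27 for sh1 and 0.29 for bt1. Features within a factor of 2 of their levels had medians of 0.43 to 0.47, and none of the 39 features of bt2's level had a smaller SD than bt2. In the aleurone the SD was 0.54 for sus1, 0.75 for sh2, 1.05 for sh1, 2.88 for bt2 and 3.60 for bt1. The medians of features of like level were 0.43, 1.10, 1.03, 2.58 and 1.74 in that order, and 94.8% of the features of bt1's level and 22.6% of those of sh2's level varied less.

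**Figure D4:**
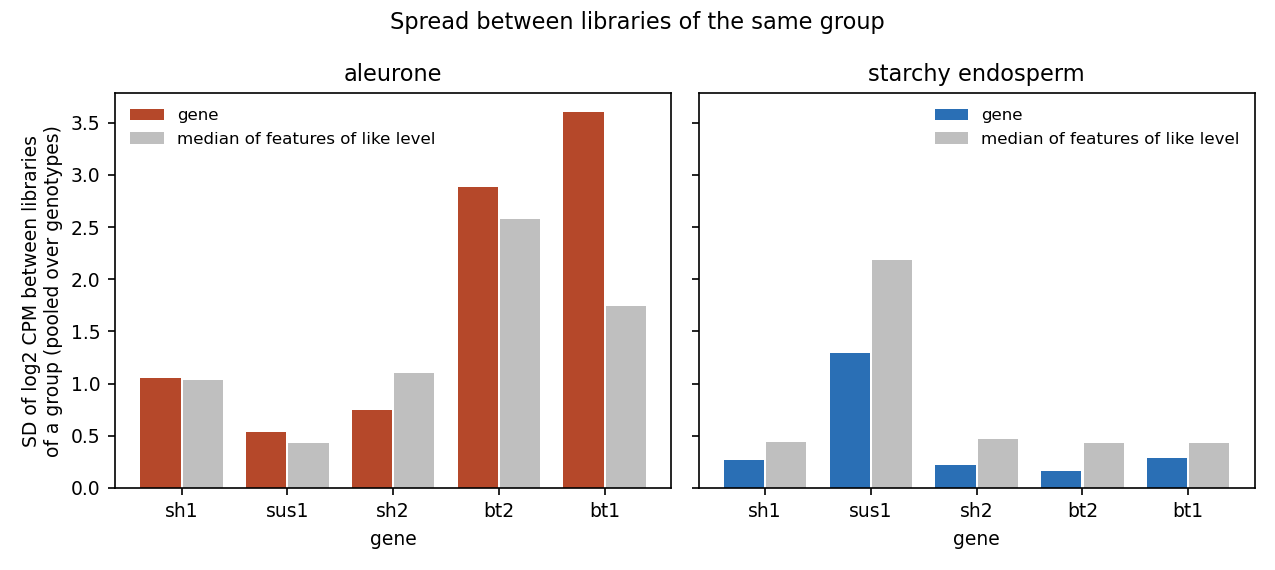
SD of log2 CPM between libraries of the same group, pooled over the genotypes, for each gene (coloured bars) and the median of features within a factor of 2 of its level (grey bars). In the starchy endosperm the bars of sh1, sh2, bt2 and bt1 are shorter than the grey ones; in the aleurone bt1 reaches 3.60 against 1.74.

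The ratio of the subunit genes sh2 and bt2 varied little in the starchy endosperm, where each gene also varied little by itself (SD of log2 CPM 0.22 and 0.16). Whether the 2 genes vary together was not tested. The log2 ratio of sh2 to bt2 was 1.40 ± 0.26 there (n = 9, 1.09 to 1.89), and that of bt1 to bt2 was -0.32 ± 0.30 (-0.95 to -0.06). In the aleurone the ratio of sh2 to bt2 was 5.75 ± 4.42 (n = 8), with 10.05 to 11.27 in the 3 libraries without bt2 counts and 0.85 to 5.07 in the other 5. Within genotypes the aleurone ratio was 4.08 higher on the log2 scale (two-sided exact permutation p = 0.007, 0.0105 adjusted over the 3 ratios). With 2 counts added in place of 0.5 the difference was 3.41 (adjusted p = 0.0105). The adjusted p rose to 0.0516 without r1-m3 aleurone replicate 1 and to 0.0555, 0.0600 and 0.0562 without R1-sc starchy endosperm replicate 1, 2 and 3. The ratio of bt1 to bt2 in the aleurone ran from -8.55 in R1-g replicate 3 to 10.05 in R1-sc replicate 1. Both ends depend on the 0.5 added, since the former library held 0 bt1 counts and the latter 0 bt2 counts. The ratio of bt1 to bt2 did not differ between compartments beyond this spread (difference 2.28, exact permutation p = 0.26, 0.26 adjusted). It passed without R1-g aleurone replicate 3 (difference 3.74, adjusted p = 0.019).

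The second question was whether these genes follow the R1 allele within a compartment. In the starchy endosperm edgeR called 0 of the 5 genes in each pair of genotypes. Of all features, 0.0262% were called for R1-sc against R1-g (0.00523% higher, 0.0209% lower). For r1-m3 against R1-g the share was 0.0209% (0.00523% higher, 0.0157% lower), and for r1-m3 against R1-sc it was 0.0262% (0.0157% higher, 0.0105% lower). At an unadjusted p under 0.05 the counts were 1, 1 and 0 of the 5, and the share of all features at that threshold was not counted. DESeq2 called 1, 1 and 0 of the 5, where it called 383 of 16442, 391 of 16442 and 592 of 16114 features. The gene in question was sus1, with 165 counts in R1-g starchy endosperm against 1 in R1-sc and 4 in r1-m3. All 3 R1-g libraries lay above all libraries of the other genotypes, at 1.06 CPM and above against 0.354 CPM and below. The adjusted p was 0.0910 against R1-sc and 0.174 against r1-m3 (edgeR, log2 fold changes -6.93, SE 1.31, and -5.43, SE 1.13, both depending on how near-zero counts are treated). With all 18 libraries the first was called (0.0273). Leaving out a starchy endosperm library also made calls: the first without R1-g replicate 1 (0.0259) or r1-m3 replicate 1, 2 or 3 (0.00547, 0.0341 and 0.0329), and the second without R1-g replicate 1 (0.0353) or r1-m3 replicate 1, which held its 4 counts (0.0150). Without R1-g replicate 3 the log2 values were -5.04 and -3.55 (edgeR adjusted p = 0.0860 and 0.330). From the starchy endosperm libraries alone neither was called (edgeR adjusted p = 0.648 and 0.704). The log2 values were then -6.68 (SE 2.78) and -5.39 (SE 2.57).

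For the other genes no starchy endosperm group was called apart from another in the fit of 17 libraries. sh1 was ordered R1-sc (22416 ± 6436 CPM), R1-g (16153 ± 774) and r1-m3 (14672 ± 1030, n = 3 each). sh2 was ordered r1-m3 (14359 ± 1730), R1-g (13261 ± 2247) and R1-sc (13156 ± 2105). bt2 was ordered R1-g (5722 ± 401), r1-m3 (4951 ± 910) and R1-sc (4804 ± 243), and bt1 r1-m3 (4480 ± 1149), R1-sc (4029 ± 362) and R1-g (3948 ± 910). No pair of neighbours in these orders passed the test, and the edgeR adjusted p was 0.981 or above in each pair of genotypes. For sh1, R1-sc replicates 1 and 3 (24931 and 27215 CPM) lay above all libraries of the other genotypes (up to 17030 CPM). From the starchy endosperm libraries alone, sh1 in R1-sc differed from R1-g and r1-m3 at an unadjusted edgeR p of 0.0202 and 0.0141. Neither was called there (adjusted p = 0.648 and 0.408). The 6 genes together took 2.33% to 3.87% of feature counts in the starchy endosperm and 0.0668% to 0.240% in the aleurone.

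In the aleurone, sh2 was the only gene of the set that edgeR called between genotypes in the fit of 17 libraries. It was ordered r1-m3 (207 ± 143 CPM, n = 2), R1-sc (48.3 ± 11.5, n = 3) and R1-g (26.5 ± 10.2, n = 3). r1-m3 exceeded R1-g by 2.97 on the log2 scale (SE 0.384, edgeR adjusted p = 9.76e-05) and R1-sc by 2.10 (SE 0.377, 0.0121), and R1-sc exceeded R1-g by 0.87, which was not called (SE 0.342, adjusted p = 0.297). With all 18 libraries the first pair of differences was 2.92 and 2.05 (adjusted p = 4.83e-05 and 0.00472). sh2 was 1 of 5 genes called against R1-g, where 0.199% of all features were called (0.178% higher), and 1 of 5 against R1-sc, where 0.0733% were called (0.0471% higher). Between R1-sc and R1-g 0 of the 5 were called by edgeR, against 0.283% of all features (0.209% higher, 0.0733% lower). At an unadjusted p under 0.05 the count was 1 (sh2), with no share of all features counted. DESeq2 called 0 of the 5, where it called 1298 of 16442 features.

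Both sh2 calls rest on an estimate of the spread that includes the starchy endosperm libraries. From the aleurone libraries alone, neither was called (log2 differences 2.95 and 2.10, edgeR adjusted p = 0.951 and 0.782). Without r1-m3 aleurone replicate 1, at 309 CPM, 1 r1-m3 library is left and is assumed to vary like the other groups; the differences were then 2.01 (adjusted p = 0.0112) and 1.14 (0.737). Without R1-sc aleurone replicate 2 the second call was lost as well (0.0578).

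The aleurone values of the transcripts abundant in the starchy endosperm are given beside sh2. The 107 features above include sh1, sh2, bt2 and bt1. For these 107, the median log2 difference between r1-m3 and R1-g aleurone was 0.03, and 4 of them exceeded sh2. Of the 107, 5 (4.67%) were called, sh2 among them, against 0.199% of all features. Between r1-m3 and R1-sc the median was -0.30, and 1 exceeded sh2, which was bt2, at 3.01, a difference that was not called (edgeR adjusted p = 0.70). There 1 of the 107 was called (0.935%), which was sh2, against 0.0733% of all features. Between R1-sc and R1-g the median was 0.38, and 7 (6.54%) were called, sh2 not among them, against 0.283% of all features. The 107 features took 29.8% to 42.9% of feature counts in R1-g aleurone, 34.2% to 44.5% in R1-sc aleurone and 35.2% to 41.8% over the 3 libraries of r1-m3 aleurone. The part of starchy endosperm RNA in the aleurone values of sh2 was not tested beyond these figures.

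The other genes were not called between genotypes in the aleurone. sus1 was highest in R1-g (1500 ± 463 CPM), then R1-sc (603 ± 314) and r1-m3 (489 ± 53.8, n = 2). All 3 R1-g libraries, from 990 CPM, lay above all others, up to 942 CPM, but edgeR gave an adjusted p of 0.527 against R1-sc and 0.730 against r1-m3. From the aleurone libraries alone, sus1 differed from R1-g by -1.34 (SE 0.388) in R1-sc and -1.64 (SE 0.453) in r1-m3 on the log2 scale. There edgeR gave unadjusted p of 0.00206 and 0.00133, and adjusted p of 0.376 and 0.9345, so neither was called. sh1 stood at 119 ± 11 CPM in r1-m3 (n = 2), 115 ± 58.4 in R1-sc and 56.3 ± 61.2 in R1-g, and the groups overlapped. Without R1-g aleurone replicate 2 sh1 was called lower in R1-g than in R1-sc and r1-m3 (edgeR adjusted p = 0.00323 and 0.00578), so that library decides whether sh1 counts as different. bt2 stood at 23.3 ± 20 CPM in r1-m3 (n = 2), 3.59 ± 4.60 in R1-g and 2.89 ± 5.01 in R1-sc. bt1 stood at 46.5 ± 80.3 CPM in R1-g, 26.7 ± 31.7 in r1-m3 (n = 2) and 14.3 ± 10.6 in R1-sc.

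Whether the compartment difference itself depended on genotype was tested as an interaction. For r1-m3 against R1-g, 1 of the 5 genes was called, where 0.0785% of all features were (0.0733% in the same direction): the compartment difference of sh2 was smaller in r1-m3 by 2.85 on the log2 scale (SE 0.509, edgeR adjusted p = 0.00997). It was 2.80 with all 18 libraries (0.00714). It was 3.44 without r1-m3 aleurone replicate 2. The call was lost without r1-m3 aleurone replicate 1 (1.90, adjusted p = 0.291) or r1-m3 starchy endosperm replicate 3 (0.0648). For r1-m3 against R1-sc sh2 did not pass (1.98, SE 0.506, adjusted p = 0.344). For sus1 the compartment difference was larger in R1-sc and r1-m3 than in R1-g by 5.61 (SE 1.56) and 3.82 (SE 1.41), and neither passed (edgeR adjusted p = 0.290 and 0.508). For R1-sc against R1-g and r1-m3 against R1-sc edgeR called 0 of the 5 genes. Of all features, 0.12% (0.11% higher, 0.0105% lower) and 0.00523% were called there. At an unadjusted p under 0.05 the counts were 1 and 1, with no share of all features counted. DESeq2 called 0 and 0 of the 5, where it called 843 of 16114 and 718 of 16442 features.

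Patterns over the 6 groups were compared by the root mean square difference of mean log2 CPM, each feature centred on its own mean, among features of at least 10 CPM. Each gene was ranked against the 7926 others, and the reference names none of the closest, which are given by ID. Nearest to sh1 were Zm00001d028452 (0.31) and Zm00001d030855 (0.36), and sh2 ranked 17th (0.55). Nearest to sh2 were Zm00001d002960 (0.36) and Zm00001d044224 (0.39), with sh1 10th (0.55), bt1 68th (0.91) and its partner subunit bt2 440th (1.92). For bt2 they were Zm00001d045391 (0.58) and Zm00001d036125 (0.88), with bt1 28th (1.74) and sh2 41st (1.92). Some aleurone libraries held 0 bt2 counts, so the distances of bt2 depend on how 0 is treated. Nearest to bt1 were Zm00001d028714 (0.22) and Zm00001d006713 (0.38), with sh1 13th (0.88), sh2 14th (0.91) and bt2 184th (1.74). For sus1 they were Zm00001d021666 and Zm00001d002326 (0.98 each), and the other 4 genes ranked between 7834 and 7923. The libraries are the same for all features, so these distances are descriptions.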

How the data were processed

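The deposited files are tables of raw read counts per feature, 1 for each library. The submitters' processing notes list HTSeq 0.11.2, HISAT2, Trimmomatic 0.39, SAMtools, DESeq2 and FastQC as tools and B73 RefGen_v4 as the build. Strand and other settings are not given in the sources used here. Per the labels' protocols, 5 ng of PicoPure RNA was amplified with Ovation RNA-Seq V2 into cDNA, of which about 400 ng entered NEBNext Ultra II paired-end libraries. Such reads carry no molecular identifiers, so intervals cover counting error only. Reads given to no feature took 66.9% to 75.0% of the table totals; reads with several alignments, 42.2% to 55.0%, are among them, so reads shared by near-identical gene copies are lost.

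Counts were tested with edgeR 4.0.16 (R 4.3.3): filterByExpr kept 19111 features, TMM factors came from all 18 libraries, and robust quasi-likelihood F tests used 6 group means over 17 libraries, with Benjamini-Hochberg adjustment over all features in each of 13 contrasts. The SE is the log2 fold change divided by the square root of F. Ratios were tested by exact permutation. The fit was tested on simulated counts with a small set of changed features. It recovered most of them, but the share of false calls among all calls was above the nominal 5%, so edgeR calls near the threshold are less firm than their adjusted p states. Alternatives included DESeq2 1.42.0. All 6 genes were named, fold changes between genotypes were given at an unadjusted p under 0.05, and 2 nearest features were named for each gene. The genes, lists and tests were chosen with earlier results of these data known. Names of the 6 features come from the selection, since the reference table (Zm-B73-REFERENCE-NAM-5.0) holds none of the IDs. Same-numbered aleurone and starchy endosperm libraries did not deviate together.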

Additional observations from a re-analysis of the deposited data

Results flagged for a closer look

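1 result was singled out because the compartment difference of a gene differed between genotypes by a test of that difference. The difference of sh2 between aleurone and starchy endosperm was smaller in r1-m3 than in R1-g by 2.85 on the log2 scale (edgeR adjusted p = 0.00997), and the sh2 level was higher in both r1-m3 aleurone libraries fitted (309 and 106 CPM) than in the 3 of R1-g (15.9 to 36.3 CPM). The call was lost without r1-m3 starchy endosperm replicate 3 (edgeR adjusted p = 0.0648). The value fell to 1.90 without r1-m3 aleurone replicate 1, which leaves 1 library in that group. From the aleurone libraries alone, sh2 was not called between r1-m3 and R1-g (edgeR adjusted p = 0.951). Groups of 3 libraries are too small for the test for a library far from the others.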

How the results depend on the processing

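Averaged over genotypes, all 5 genes were called in every edgeR alternative, and by DESeq2 4, with no p for bt2. Without TMM factors the median log2 fold change of all features rose from 0.57 to 1.46, and calls from 3991 higher and 2559 lower to 5832 and 1740, but relative to that median sh1 stayed near -8.14 (-8.09) and sus1 near 10.74 (10.73). Without a filter on low counts the calls were 5 in each genotype between compartments; 2, 3 and 2 in the aleurone for R1-sc against R1-g, r1-m3 against R1-g and r1-m3 against R1-sc; 1 and 1 in the starchy endosperm for R1-sc and r1-m3 against R1-g; and 1, 3 and 2 for the interactions. That fit shrank every gene fully to the common trend, so the quasi-likelihood dispersion of bt1 was 0.205 in place of 5.27. Libraries of r1-m3 alone gave 5 calls between compartments, where 1215 of 15048 features were called. Aleurone libraries alone gave 0 and 0 for r1-m3 against R1-g and R1-sc, where 3 and 5 of 16823 features were called. All 18 libraries gave 1 for R1-sc against R1-g in the starchy endosperm, where 10 of 18028 were called. DESeq2 gave 1 for R1-sc and 1 for r1-m3 against R1-g there, where it called 383 and 391 of 16442. The cause of these changes was not tested.

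Leaving out 1 library gave 0 to 1 calls for R1-sc against R1-g in the aleurone, 1 to 2 for r1-m3 against R1-g, 0 to 1 for r1-m3 against R1-sc, 0 to 1 for both starchy endosperm comparisons with R1-g and 0 to 2 for the interaction of r1-m3 against R1-g; the sh2 to bt2 difference ran from 3.25 to 5.10, and the bt1 to bt2 difference from 1.3 to 3.74. Deviations of same-numbered libraries correlated at -0.002 to 0.024 over 9 pairs, and 4 of 9 aleurone libraries correlated best with their own number. With so few libraries in a group, this cannot show whether same-numbered libraries share a plant or day, which the labels do not say. A replicate block left 5 calls averaged over genotypes and changed the count over all features from 6550 to 5647. Over all features, DESeq2 called 3827 between compartments in R1-g (edgeR 1387), 4881 in R1-sc (1942) and 3091 in r1-m3 (880), and 383 to 1298 between genotypes, against 4 to 54. With 2 counts added, the ratio differences were -18.16 for sh1 to sus1, 3.41 for sh2 to bt2 and 1.88 for bt1 to bt2. Leaving out 1 library moved the number of features called between genotypes from 54 to between 36 and 90 for R1-sc against R1-g in the aleurone, from 38 to between 23 and 56 for r1-m3 against R1-g and from 14 to between 11 and 25 for r1-m3 against R1-sc, and to at most 10 in each starchy endosperm comparison. No called difference changed its direction. Some differences that were not called did, such as sh1 between r1-m3 and R1-sc aleurone (0.05, and -0.01 with all 18 libraries) and bt1 between R1-sc and R1-g aleurone (-1.70, and 7.04 without R1-g aleurone replicate 1). bt2 and bt1 in the aleurone, and sus1 in the starchy endosperm, are limited by counts near 0.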
